A study of Mus musculus with 6 samples.

Results

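Ccl3, Ccl4, Ccl6 and Ccl9 are 4 CC chemokine genes that basophils transcribe. They were read here in 3 populations sorted from mouse bone marrow, a basophil precursor and 2 populations without CD34. The genes were picked by name, by matching the Entrez Gene IDs of the expression tables to mouse symbols, and all 4 were found among 24532 genes listed. Gene expression was measured by RNA sequencing of marrow cells of C57BL/6J mice, in 2 biological duplicates for each of 3 populations. BaP, named a basophil precursor in the labels, lacked lineage markers and c-Kit, carried CD34 and was stained by MAR1, an antibody that recognises the Fc epsilon RI alpha subunit of the IgE receptor. MAR1HI and MAR1INT shared a gate without lineage markers, CD34 or c-Kit and with CD200R3, and were separated by a high (HI) or an intermediate (INT) MAR1 signal. The labels give no age, sex or treatment, and no transgene or deletion. Steps, rises and falls below are differences between populations in the order BaP, MAR1HI, MAR1INT. An order in time was not tested.

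Chemokines are small secreted proteins that guide leukocyte migration through receptors coupled to G proteins. CC chemokines carry a pair of adjacent cysteines near the start of the mature protein. Ccl3 and Ccl4, the macrophage inflammatory proteins alpha and beta, are acute products of activated myeloid and lymphoid cells. Ccl6 and Ccl9 are rodent chemokines made by myeloid cells that, like Ccl3, act through Ccr1. They carry a longer amino-terminal end, and proteases that trim it make more active forms. Basophils store histamine and granule proteases, and when their IgE receptors are bridged they release these and make cytokines and chemokines.

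The 4 genes lie in 1 chemokine cluster on mouse chromosome 11 (build mm10, coordinates as in the deposited tables), within 91767 bases. Ccl9 (gene ID 20308) occupies positions 83572917 to 83578636 and Ccl6 (20305) positions 83587886 to 83593087, both on the minus strand and 9249 bases apart. Ccl3 (20302) follows at 83647843 to 83649378 on the minus strand, 54755 bases from Ccl6. Ccl4 (20303) is read from the plus strand at 83662584 to 83664683, 13205 bases from Ccl3. The order on the chromosome thus places Ccl9 beside Ccl6 and Ccl3 beside Ccl4.

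Exon structure separates the same pairs. In the GENCODE annotation of GRCm38, Ccl3 and Ccl4 have 3 exons and a coding region of 92 codons each, whereas Ccl6 and Ccl9 have 4 exons and 116 and 122 codons. The coding exon that holds the paired cysteines is shown for each gene from its 5′ to its 3′ end because it carries the feature that names the family. Capitals mark the paired cysteine codons.
Ccl3: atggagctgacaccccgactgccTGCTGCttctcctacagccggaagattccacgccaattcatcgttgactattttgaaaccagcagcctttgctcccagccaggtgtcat
Ccl4: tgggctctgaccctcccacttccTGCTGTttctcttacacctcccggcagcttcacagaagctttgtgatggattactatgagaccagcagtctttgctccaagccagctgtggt
Ccl6: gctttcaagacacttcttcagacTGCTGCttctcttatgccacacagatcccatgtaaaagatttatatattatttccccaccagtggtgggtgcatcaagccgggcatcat
Ccl9: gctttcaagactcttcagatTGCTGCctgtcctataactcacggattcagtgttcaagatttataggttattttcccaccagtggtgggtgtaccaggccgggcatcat
The pair starts at codon 34 in Ccl3 and in Ccl4, in exon 2, at chr11:83648569-83648680 and chr11:83663459-83663573. In Ccl6 it starts at codon 50 and in Ccl9 at codon 57, both in exon 3, at chr11:83589303-83589414 and chr11:83575843-83575951. All 4 coding regions hold 6 cysteine codons. Coding identity over aligned bases was 67.4% between Ccl3 and Ccl4 and 70.4% between Ccl6 and Ccl9, against 59.5% to 61.6% for the other pairs.

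The later position of the cysteines in Ccl6 and Ccl9 goes with a short additional coding exon, exon 2, which Ccl3 and Ccl4 lack. It lengthens the amino-terminal end ahead of the cysteines and is shown here as the difference between the pairs.
Ccl6: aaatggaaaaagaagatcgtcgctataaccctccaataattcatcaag
Ccl9: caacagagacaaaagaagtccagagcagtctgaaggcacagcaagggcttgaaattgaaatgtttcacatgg
The exon measures 48 bases in Ccl6 (chr11:83589757-83589804, minus strand) and 72 bases in Ccl9 (chr11:83576375-83576446, minus strand).

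Transcript levels of all 4 genes were lowest in BaP, higher in MAR1HI and highest in MAR1INT, with no overlap between libraries of different populations for any of them. With duplicates such a separation is common among all tested genes. Both libraries of the first-named population lay above both of the other in 38.2% for MAR1HI against BaP. The share was 12.7% for MAR1INT against MAR1HI and 29.7% for MAR1INT against BaP. Levels are given as TPM, a unit of transcript abundance that corrects for transcript length and has the same sum in every library. The 4 genes together made up 298 and 372 TPM in the BaP libraries, 1727 and 2050 in MAR1HI, and 4824 and 4761 in MAR1INT. That was 0.0298% and 0.0372% of all TPM in the BaP libraries, 0.173% and 0.205% in those of MAR1HI, and 0.482% and 0.476% in those of MAR1INT. The duplicates are the only replicates, so p-values measure the spread between these samples. With 2 libraries a side, an exact two-sided permutation p is at least 0.33, and the tests below rest on the spread that limma pools over genes. Before the results, MAR1HI replicate 2 is to be named as apart from its duplicate by its scaling factor, and the BaP duplicates as unlike in marker transcripts. BaP replicate 2 held more neutrophil, monocyte and macrophage (1091 against 656 TPM) and erythroid transcripts (2313 against 1546 TPM). BaP replicate 1 held more dendritic cell (995 against 359 TPM) and eosinophil transcripts (2160 against 1146 TPM). Values are given further down. The libraries are bulk samples, in which fewer cells of a type and less RNA per cell cannot be told apart.

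**Figure D1:**
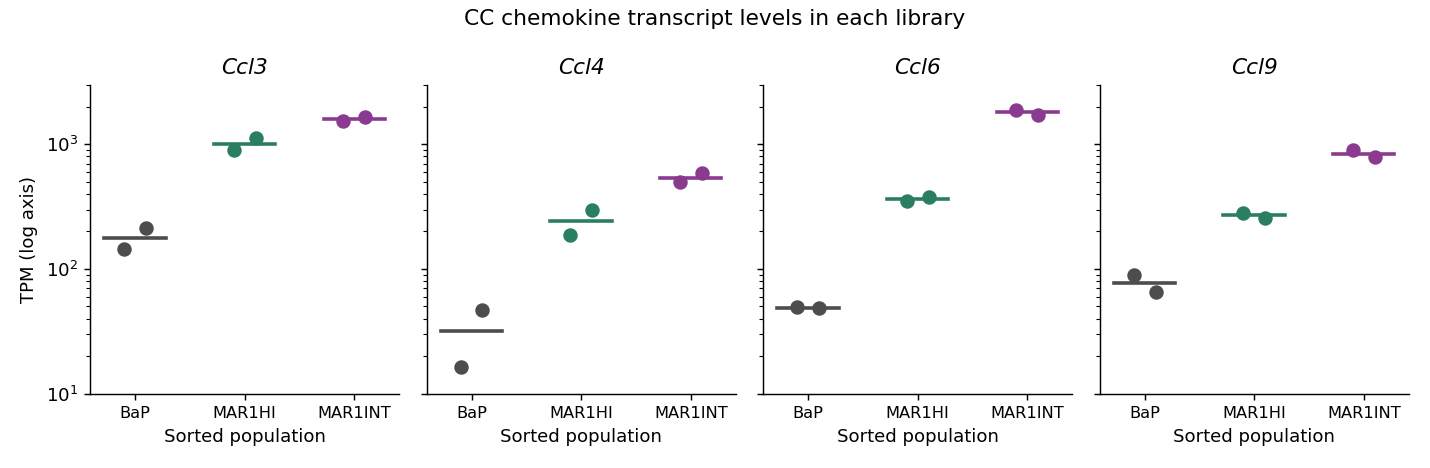
TPM of each gene (logarithmic vertical axis) in the 2 libraries of BaP, MAR1HI and MAR1INT; points are libraries and bars are group means. For every gene the 3 populations occupy separate ranges in the order BaP, MAR1HI, MAR1INT, from 16.3 TPM for Ccl4 in a BaP library to 1885 TPM for Ccl6 in a MAR1INT library.

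Ccl3 was already the most abundant of the 4 in the precursor. It measured 144 and 212 TPM for BaP, 906 and 1123 for MAR1HI, and 1544 and 1651 for MAR1INT. The group means were 178 ± 47.9, 1014 ± 153 and 1598 ± 75.7 TPM (SD, n = 2 each). Most of the distance was covered between BaP and MAR1HI, with 5.71-fold between those means and 1.58-fold between MAR1HI and MAR1INT. On the log2(TPM + 1) scale the first difference was 2.52 (SE 0.23, limma adjusted p = 0.000984) and Ccl3 rose. The second was 0.66 (SE 0.23, limma adjusted p = 0.0756), which did not pass the threshold of 0.05 although the lowest MAR1INT library stood 1.38-fold above the highest MAR1HI library.

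Ccl4, the neighbour and close relative of Ccl3, was the least abundant of the 4 in BaP. It stood at 16.3 and 46.8 TPM in BaP cells, 189 and 295 in MAR1HI cells, and 497 and 585 in MAR1INT cells. Its means were 31.6 ± 21.5, 242 ± 75.4 and 541 ± 62.2 TPM (SD, n = 2 each). As a ratio, the BaP duplicates differed more for Ccl4 than for the other 3 genes, and its standard error on the log2 scale was the widest of the 4. The MAR1HI mean was 7.66 times the BaP mean, a log2 difference of 3.04 (SE 0.42, limma adjusted p = 0.00856). The MAR1INT mean was 2.24 times the MAR1HI mean, a log2 difference of 1.19 (SE 0.42, limma adjusted p = 0.0867) that did not pass the threshold. It passed in 6 of 15 alternatives, among them the fits that left out a BaP or a MAR1INT library. Leaving out a BaP library cannot change this difference, only the pooled spread. Leaving out a MAR1INT library takes away the spread within that group. Passing in such fits therefore adds no support for a call.

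Ccl6 had the widest range of the 4. Its levels were 49.4 and 48.4 TPM for BaP, 350 and 376 for MAR1HI, and 1885 and 1736 for MAR1INT. The means were 48.9 ± 0.772, 363 ± 18.1 and 1810 ± 105 TPM (SD, n = 2 each), so that duplicates lay close together in every population. Ccl6 rose at both steps, 7.43-fold from BaP to MAR1HI (log2 difference 2.87, SE 0.18, limma adjusted p = 0.000187) and 4.98-fold from MAR1HI to MAR1INT (2.31, SE 0.18, limma adjusted p = 0.000150). Between the outer populations the fold of means was 37.0. That log2 difference, 5.18 (SE 0.18, limma adjusted p = 1.21e-06), ranked 8 from the top of the 11337 genes tested.

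Ccl9, which lies beside Ccl6, was higher than Ccl6 in both BaP libraries and lower in the other libraries. Its levels were 88.7 and 65.3 TPM in BaP cells, 282 and 256 in MAR1HI cells, and 898 and 788 in MAR1INT cells. The means were 77.0 ± 16.6, 269 ± 18.3 and 843 ± 77.6 TPM (SD, n = 2 each). Both steps were of like size and both passed the test. The first was 3.49-fold (log2 difference 1.81, SE 0.22, limma adjusted p = 0.00534) and the second 3.13-fold (1.64, SE 0.22, limma adjusted p = 0.00144).

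All 4 genes were thus called higher in MAR1HI than in BaP, where 1.83% of tested genes were called higher and 0.662% lower. In MAR1INT against MAR1HI 2 of the 4, Ccl6 and Ccl9, were called higher and none lower, where the background was 2.29% higher and 14.5% lower. In MAR1INT against BaP all 4 were called higher, against 11.1% of tested genes higher and 20.4% lower. In that comparison the log2 differences were 3.19 for Ccl3 (limma adjusted p = 4.85e-05), 4.23 for Ccl4 (0.000193) and 3.45 for Ccl9 (2.50e-05). The median log2 difference over the 4 genes was 2.70, 1.42 and 3.84 in the 3 comparisons in this order, beside 0.24, -0.36 and -0.16 over all genes tested. The comparisons share libraries and are not independent of each other. The call for the first step depended on both MAR1HI libraries: without MAR1HI replicate 1 or without MAR1HI replicate 2 only Ccl6 of the 4 stayed under the threshold. Without MAR1HI replicate 2 the call of Ccl9 between MAR1HI and MAR1INT was also lost (limma adjusted p = 0.0535).

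**Figure D2:**
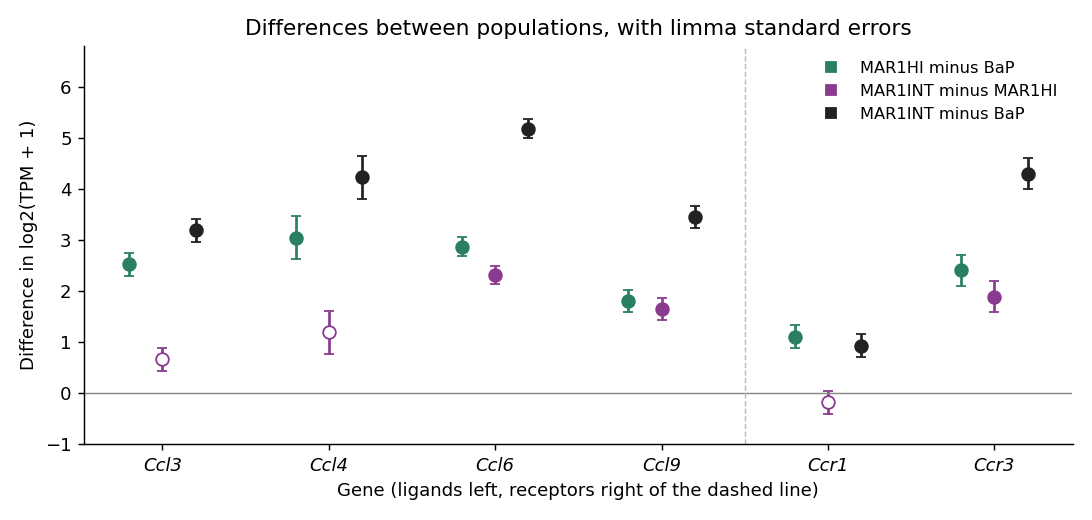
Differences in log2(TPM + 1) with limma standard errors for the 4 ligands and for Ccr1 and Ccr3; filled points have an adjusted p under 0.05 and open points do not. All 4 ligands lie above 0 in each comparison, Ccl6 reaches 5.18 in MAR1INT minus BaP, and Ccr3 reaches 4.30.

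The size of the first step minus the size of the second separated Ccl3 and Ccl4 from Ccl6 and Ccl9 in value. This difference of steps was 1.86 on the log2 scale for Ccl3 (SE 0.39, limma adjusted p = 0.0445) and 1.85 for Ccl4 (SE 0.73, limma adjusted p = 0.241). It was 0.55 for Ccl6 (SE 0.32, limma adjusted p = 0.401) and 0.16 for Ccl9 (SE 0.38, limma adjusted p = 0.840). Only Ccl3 passed, and over all tested genes 2.02% were called with a larger first step and 0.115% with a larger second step, around a median of 0.62. The Ccl3 call did not hold in 10 of 14 alternative settings, among them the deposited FPKM values (limma adjusted p = 0.0986), and was lost without either BaP library or either MAR1HI library (0.107 to 0.587).

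Ratios of 2 genes within a library do not depend on how the library was scaled, and they moved between the populations. The Ccl3 to Ccl6 ratio of TPM was 2.91 and 4.38 for BaP, 2.59 and 2.99 for MAR1HI, and 0.819 and 0.951 for MAR1INT. Ccl3 therefore exceeded Ccl6 in all 4 libraries of BaP and MAR1HI and was below it in both MAR1INT libraries. The Ccl6 to Ccl9 ratio was 0.557 and 0.740 in BaP cells, 1.24 and 1.47 in MAR1HI cells, and 2.10 and 2.20 in MAR1INT cells, with no overlap between populations. The Ccl3 to Ccl4 ratio was 8.80 and 4.52 for BaP, 4.80 and 3.80 for MAR1HI, and 3.10 and 2.82 for MAR1INT, and here BaP and MAR1HI overlapped. With 2 libraries in each group these ratios were not tested. The deposited FPKM values gave the same ratios.

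**Figure D3:**
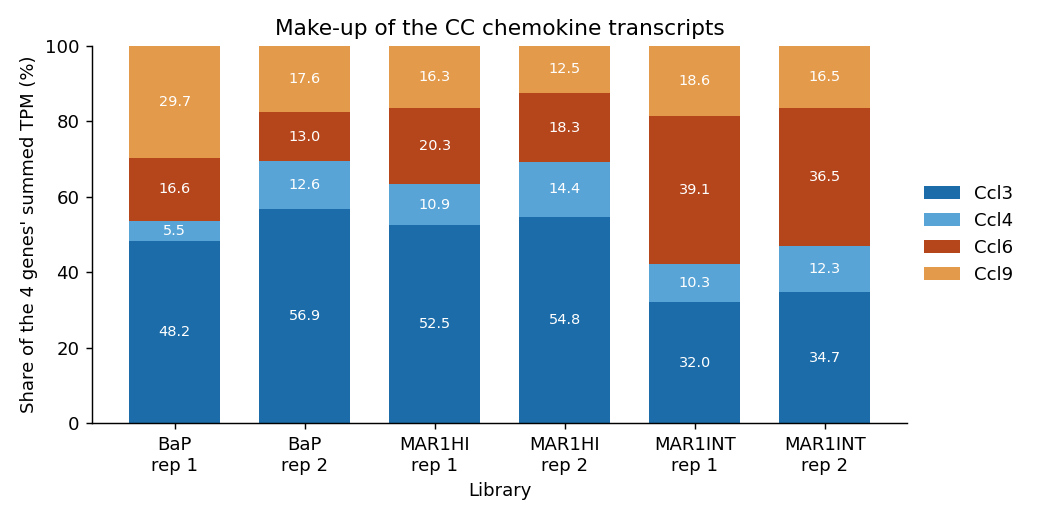
Share of each gene (percent) in the summed TPM of Ccl3, Ccl4, Ccl6 and Ccl9, 1 bar per library. Ccl3 makes up 48.2% to 56.9% in BaP and MAR1HI and 32.0% and 34.7% in MAR1INT, while Ccl6 makes up 13.0% to 20.3% and then 39.1% and 36.5%.

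The order of levels changed accordingly. In BaP it was Ccl3, Ccl9, Ccl6 and Ccl4 in both libraries, although Ccl6 and Ccl4 were close in BaP replicate 2, at 48.4 and 46.8 TPM. In MAR1HI Ccl3 led, followed by Ccl6, while Ccl9 and Ccl4 changed places between the duplicates and so did not differ beyond their spread. In MAR1INT Ccl6 and Ccl3 headed the list, at 1736 to 1885 and 1544 to 1651 TPM, followed by Ccl9 and Ccl4. Among all genes of a library ordered by TPM, Ccl6 moved from ranks 2477 and 2496 in BaP to 381 and 379 in MAR1HI and 98 and 109 in MAR1INT. Ccl3 moved from ranks 853 and 517 to 191 and 152 and then to 122 and 115.

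Scaling bears on the size of each step. Factors from the median of gene ratios lay between 0.918 and 0.996 for 5 libraries and at 1.38 for MAR1HI replicate 2. Ccl3 in the MAR1HI duplicates read 906 and 1123 in TPM and 518 and 519 in FPKM, a unit scaled by mapped fragments instead of by the TPM total. With median-of-ratios scaling the median of all tested genes moved from 0.24 to -0.04 in MAR1HI minus BaP and from -0.36 to -0.11 in MAR1INT minus MAR1HI. Of genes called in MAR1INT minus MAR1HI, 13.7% were higher in TPM and 16.5% in FPKM. The share was 39.5% with median-of-ratios scaling and 45.3% with quantile scaling. For MAR1HI minus BaP the share was 73.4%, against 59.5% and 56.9%, and 57.3% in FPKM. For MAR1INT minus BaP it was 35.3%, against 41.2%, 55.1% and 27.8%. Each of the 4 chemokine genes kept its direction in all 3 comparisons under all 15 alternatives. Only the FPKM, quantile and median-of-ratios settings could have reversed a direction, since libraries of different populations did not overlap in TPM. With median-of-ratios scaling the second step of Ccl3 passed the threshold (limma adjusted p = 0.0419).

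**Figure D4:**
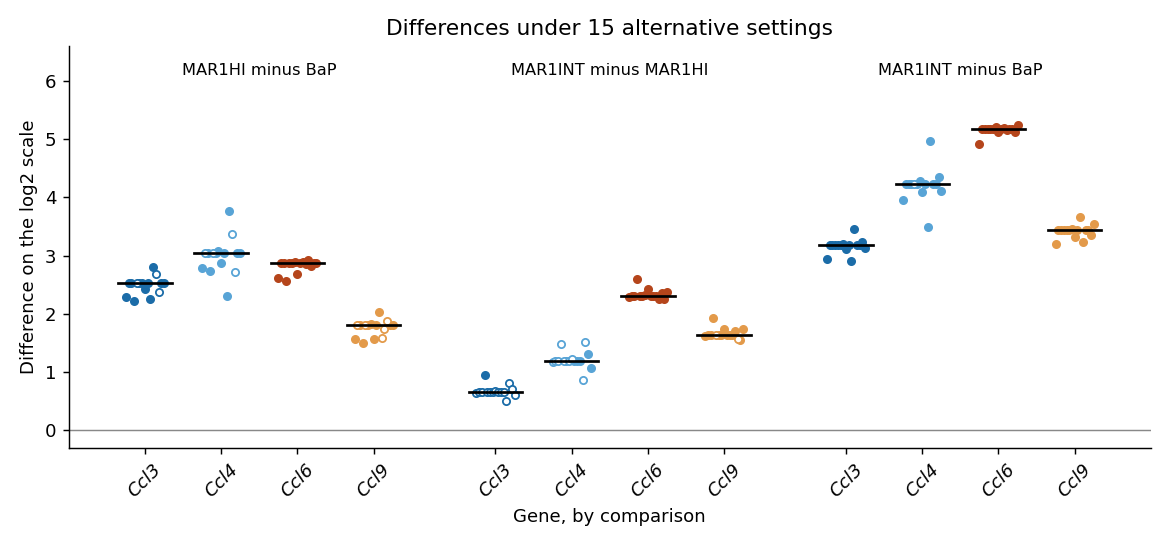
Log2 differences of the 4 genes in each comparison under 15 alternative settings (points; filled where the adjusted p is under 0.05, open where it is not) with the value reported in the text as a black bar. All points lie above 0, between 0.51 and 5.24; Ccl6 is filled throughout.

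No other chemokine ligand gene was called higher in any comparison. Of 17 other CC ligands in the tables, 8 were listed at 0 in every library, 5 more reached at most 2.83 TPM and 4 were abundant enough to test. Ccl17, a ligand of Ccr4, was listed at 11.1 and 5.28 TPM in BaP, 9.79 and 7.37 in MAR1HI and at 0 in both MAR1INT libraries, and it fell in MAR1INT against both other populations. Ccl27a, an epithelial chemokine, fell in the same 2 comparisons, though 9 of 15 alternatives gave no call against BaP and 10 none against MAR1HI. Ccl5, a chemokine of T cells and platelets, measured 9.68 and 7.55 TPM in BaP, 0 and 2.74 in MAR1HI and 0 in both MAR1INT libraries. It fell in MAR1INT against BaP (limma adjusted p = 0.00329). Ccl3, Ccl4, Ccl6 and Ccl9 accounted for 87.1% and 89.0% of all CC ligand TPM in BaP, 97.5% and 98.2% in MAR1HI and 99.7% in each MAR1INT library. Among 17 ligands of the CXC, C and CX3C classes, 4 could be tested; Cxcl10 and Pf4 fell in MAR1INT against BaP and none was called higher. Both calls were lost without BaP replicate 1 (limma adjusted p = 0.0705 for Cxcl10 and 0.0812 for Pf4).

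Chemokine receptor genes were read beside the ligands. Ccr1, the receptor of Ccl3, Ccl6 and Ccl9, was at 116 and 137 TPM in BaP cells, 240 and 312 in MAR1HI cells, and 266 and 219 in MAR1INT cells. It rose from BaP to MAR1HI (log2 difference 1.11, SE 0.23, limma adjusted p = 0.0385), a call that 10 of 15 alternatives did not give. Ccr1 was higher in MAR1INT than in BaP as well (0.93, limma adjusted p = 0.0129), a call that 5 of 15 alternatives did not give. MAR1HI and MAR1INT overlapped. Ccr3, the eotaxin receptor of basophils and eosinophils, was at 5.61 and 5.30 TPM for BaP, 28.2 and 39.3 for MAR1HI, and 131 and 120 for MAR1INT. It rose at both steps (log2 differences 2.41 and 1.89, limma adjusted p = 0.00623 and 0.00338), though the first call was lost when any 1 of the 4 BaP and MAR1HI libraries was left out (limma adjusted p = 0.0653 to 0.167). Of 12 other CC and atypical chemokine receptors 3 could be tested, and Ccr2, the receptor of monocyte chemoattractant proteins, was called higher in all 3 comparisons, from 85.2 and 56.2 TPM in BaP to 618 and 565 in MAR1INT. The Ccr2 call in MAR1HI against BaP was lost without BaP replicate 2 or either MAR1HI library (limma adjusted p = 0.0648 to 0.231), and the call in MAR1INT against MAR1HI without either MAR1HI library (0.0889 and 0.0846).

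Proteases known to trim chemokines fell where they moved. Of 6 listed, 5 were tested; 1 fell in MAR1HI against BaP, 2 in MAR1INT against MAR1HI and 3 in MAR1INT against BaP, and none rose, where 0.662%, 14.5% and 20.4% of all tested genes were lower. The first-step call was Prtn3, lost in 7 of 15 alternatives, and Elane in MAR1INT against MAR1HI was lost in 8 of 15. Cathepsin G (Ctsg), a granule protease that trims amino-terminal ends, was at 1508 and 1475 TPM in BaP cells, 925 and 937 in MAR1HI cells, and 105 and 96.5 in MAR1INT cells. Ctsg thus ran opposite to Ccl6 and Ccl9, with a log2 difference of -3.87 in MAR1INT minus BaP (limma adjusted p = 4.58e-06). Elane and Prtn3, the neutrophil elastase and proteinase genes, also fell in that comparison. These 3 genes also stand on the list of neutrophil markers.

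Regulators that are known to act on inflammatory chemokine genes were read from lists. None of 10 NF-kappaB genes was called in either step, and in MAR1INT against BaP 3 were called higher, Rela, Nfkb2 and Nfkbie, with none lower, beside 11.1% of all tested genes higher and 20.4% lower. These calls were lost in 4 of 15 alternatives for Rela and for Nfkbie and in 7 for Nfkb2; each was lost without either BaP library (limma adjusted p = 0.0962 to 0.257) and without 1 of the MAR1INT libraries (0.0675 to 0.142). Of 7 NFAT and calcineurin genes, which relay calcium signals, Nfatc1 and Nfatc3 were called higher in MAR1INT against BaP and Rcan1 lower in MAR1INT against MAR1HI, a call that Rcan1 kept in 3 of 14 alternatives. Against the same background, Nfatc3 lost its call in 7 of 15 alternatives, among them those without BaP replicate 1 (limma adjusted p = 0.228), BaP replicate 2 (0.164) and MAR1INT replicate 1 (0.166), and Nfatc1 in 2. Of 11 AP-1 and early growth response genes 7 could be tested. Junb rose in MAR1INT against both other populations, from 6.41 and 10.8 TPM in BaP and 13.6 and 24.5 in MAR1HI to 61.8 and 64.7, and Fosl2 and Jund rose in MAR1INT against BaP. Junb was not called against MAR1HI without either MAR1HI library (limma adjusted p = 0.106 and 0.0681), nor was Fosl2 against BaP without BaP replicate 1 (0.135). The median log2 difference in MAR1INT minus BaP was 0.79 for the NF-kappaB list and 0.59 for the NFAT list, beside -0.16 for all genes tested.

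AU-rich elements in the 3′ untranslated region are bound by proteins such as tristetraprolin, the product of Zfp36, which shorten the life of chemokine mRNAs. The pentamer ATTTA, the core of such elements, occurred 5 times in the 409 bases of the Ccl3 region, 2 times in 302 bases of Ccl4, 4 times in 943 bases of Ccl6 and 5 times in 2465 bases of Ccl9. Among annotated regions of like length (80% to 125%), 1.02% held at least as many as Ccl3 and 11.8% at least as many as Ccl4. At least as many as Ccl6 were held by 16.0%, and at least as many as Ccl9 by 43.6%. The longer form TTATTTA occurred 1 time each in Ccl3 and Ccl4 and 0 times in Ccl6 and Ccl9. A window of 30 bases with 2 pentamers, in capitals, is shown for Ccl3 and for Ccl6 to let the spacing be seen. Ccl9 also held a window with 2, which is not shown.
Ccl3: ATTTAATTTAatcctattggtttaatacta
Ccl6: ATTTAaagcATTTAtccttctgttcaggtt
They lie at chr11:83648065-83648094 and chr11:83588715-83588744 (GRCm38, minus strand). Zfp36 itself was at 12.3 and 29.7 TPM for BaP, 55.4 and 88.7 for MAR1HI, and 209 and 226 for MAR1INT, and rose at both steps (log2 differences 1.82 and 1.62, limma adjusted p = 0.0482 and 0.0232); the first call was absent in 10 of 15 alternatives. Of 7 regulators of AU-rich mRNA, Zfp36, Zfp36l1, Zfp36l2 and Zc3h12a were called higher in MAR1INT against BaP and none lower, beside 11.1% and 20.4% of all tested genes. Zfp36l1 was not called without BaP replicate 1 (limma adjusted p = 0.188) or BaP replicate 2 (0.130), nor was Zc3h12a without BaP replicate 1 (0.0877). Zfp36 in MAR1INT against MAR1HI was not called without either MAR1HI library (0.184 and 0.123). Zfp36 and the 4 chemokine transcripts were thus all highest in MAR1INT.

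Sequence around the transcription start was available in the RefSeq promoter table (GRCm38.p6) for Ccl3, Ccl6 and Ccl9, as windows of 250 bases before to 50 bases after the start. Ccl6 and Ccl9, which lie side by side, shared a stretch of 74 aligned positions with 59 identical bases (79.7%). It runs from -59 to 15 in Ccl6 and from -18 to 49 in Ccl9, counted from the annotated start. The whole windows are printed to show where that stretch sits, with its identical bases in capitals.
Ccl6: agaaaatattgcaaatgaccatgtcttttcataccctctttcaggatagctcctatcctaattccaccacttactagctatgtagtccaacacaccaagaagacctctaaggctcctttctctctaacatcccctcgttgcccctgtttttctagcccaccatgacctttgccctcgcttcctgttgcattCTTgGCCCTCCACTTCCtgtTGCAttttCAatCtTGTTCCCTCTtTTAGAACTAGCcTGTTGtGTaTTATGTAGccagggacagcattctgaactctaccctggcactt
Ccl9: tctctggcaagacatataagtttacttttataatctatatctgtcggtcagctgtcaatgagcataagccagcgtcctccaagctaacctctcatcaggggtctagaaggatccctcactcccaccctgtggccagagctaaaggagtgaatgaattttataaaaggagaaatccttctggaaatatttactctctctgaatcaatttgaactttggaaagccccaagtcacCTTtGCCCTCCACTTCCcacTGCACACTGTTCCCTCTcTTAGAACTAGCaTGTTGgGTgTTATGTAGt
The windows are chr11:83593038-83593337 for Ccl6 and chr11:83578587-83578886 for Ccl9, both on the minus strand. The best local match of Ccl3 to either of them spanned at most 12 positions. Without a window for Ccl4, the neighbours Ccl3 and Ccl4 could not be compared. A link between the shared stretch and transcript levels was not tested.

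Both strands of these windows were searched for short motifs of factors known in basophils and in chemokine genes. The Ccl9 window held GGGNNTTCC, an NF-kappaB form present in 5.82% of 32851 promoter windows, at -35 to -27, and TGANTCA, the AP-1 site found in 7.81%, at -53 to -47. It also held TATAAA at 3 places, 2 of them overlapping, a motif found in 13.6% of windows. The Ccl3 window held TGTGGT, a RUNX form found in 16.8%, at -122 to -117, and GGAAAA, the NFAT core found in 23.4%, at -60 to -55. The Ccl6 window held none of the motifs searched. Of the NF-kappaB forms, GGACTTTCC (0.344% of all windows) and GGAATTTCC (0.317%) were in none of the 3 windows. Also in none of them were TGACGTCA, the cyclic AMP response element (1.79%), AGATAA, a site of factors such as Gata2 (11.2%), and TTCNNNGAA, the STAT site (8.30%). The same held for the C/EBP forms TTGCGCAA (0.183%) and TTGCNNCA (11.4%) and for the PU.1 form GAGGAAGT (3.20%). These are matches of letters in a short window.

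No tested gene next to the cluster was called higher in any comparison. Within 250 kilobases of the 4 genes the tables held 14 other genes, of which 7 could be tested. Of these, 1 was called lower in MAR1INT against MAR1HI and 3 in MAR1INT against BaP, where 14.5% and 20.4% of all tested genes were lower; 1 of 7 is near that background. Wfdc17 lost its call in 6 of 15 alternatives, among them those without BaP replicate 1 (limma adjusted p = 0.0750), MAR1HI replicate 1 (0.0597) and MAR1HI replicate 2 (0.0606). Wfdc21 and Wfdc17, small secreted proteins of the whey acidic family, were at 66.6 and 99.8 and at 36.7 and 3.28 TPM in BaP and were listed at 0 in both MAR1INT libraries. Ccl5, on the other side of Ccl9, fell as well. Taf15, an RNA-binding protein gene, stayed between 281 and 442 TPM, and Ap2b1, an adaptor of clathrin coats, between 108 and 173 TPM, without a call. The noncoding gene E230016K23Rik overlaps Ccl6 on the other strand, and the reference span of Ccl4 reaches over Ccl3. Whether reads were counted by strand was not given in the sources used here; E230016K23Rik was listed at 1.44 TPM or less.

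**Figure D5:**
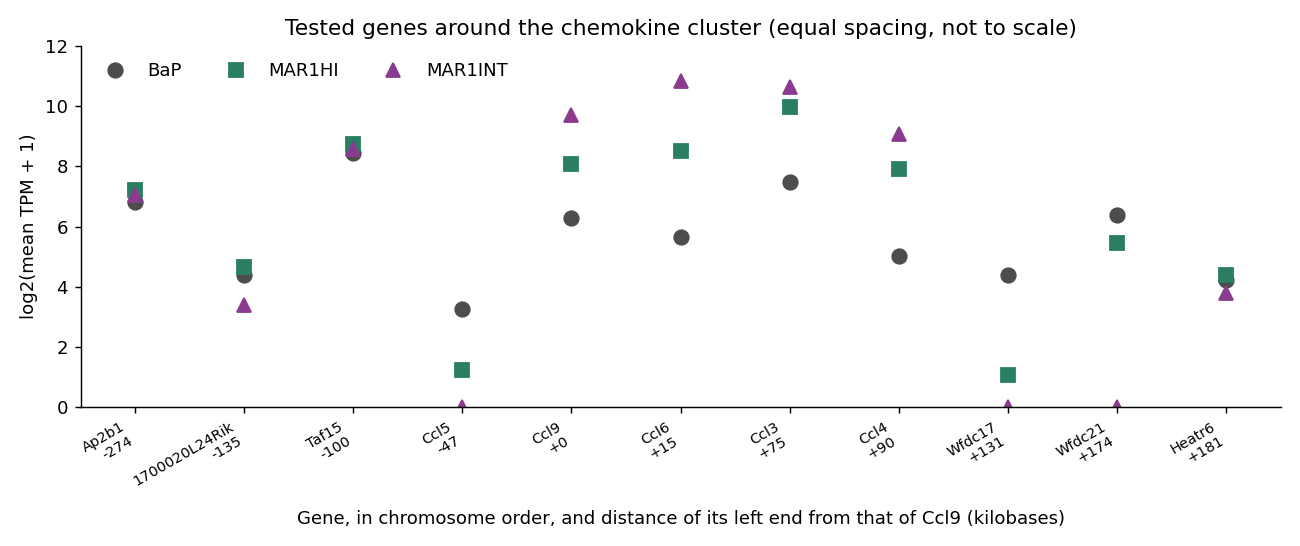
Log2(mean TPM + 1) of the tested genes around the cluster in the 3 populations, in chromosome order, with the distance of each gene's left end from that of Ccl9 in kilobases under its name. Ccl9, Ccl6, Ccl3 and Ccl4 show MAR1INT on top and BaP at the bottom; Ccl5, Wfdc17 and Wfdc21 show the opposite order, with MAR1INT at 0.

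Genes whose course over the 6 libraries was most like that of each chemokine gene were listed by the root mean square difference of centred log2(TPM + 1) values, among 7260 tested genes with a mean of at least 10 TPM. Closest to Ccl3 were Fhl2, a LIM domain protein (0.16), Myo1d (0.20), Pdzd4 (0.21), the potassium channel gene Kcnj2 (0.24) and the histamine receptor gene Hrh4 (0.25). Closest to Ccl4 were L1cam (0.34), Il7r (0.35), Adam8 (0.38), Itgb3 (0.38) and C3ar1 (0.40). Closest to Ccl6 were Mapk12 (0.32), Ccr3 (0.38), Evi2b (0.39), the serotonin transporter gene Slc6a4 (0.44) and Adam8 (0.45). Closest to Ccl9 were Ccr2 (0.22), Lilrb4a (0.22), Arrdc4 (0.25), Sytl2 (0.26) and Tulp4 (0.26). Some of these genes were near the floor in the BaP libraries. Mapk12 was at 0 and 0.558 TPM there, Slc6a4 at 2.82 and 0.444, and Fhl2 at 0.684 and 1.65. At such levels the added 1 shrinks log2 differences, so a close match does not mean a like fold in TPM. None of the 4 was among the 5 closest genes of another: the differences were 0.51 for Ccl3 with Ccl4, 0.53 for Ccl3 with Ccl9, 0.68 for Ccl4 with Ccl6, 0.73 for Ccl6 with Ccl9, 0.79 for Ccl4 with Ccl9 and 0.89 for Ccl3 with Ccl6. By rank, Ccl3 was 10 from Ccl4 and Ccl4 was 75 from Ccl3. Among the 4, Ccl3 and Ccl4 were each the closest to the other, for Ccl3 by a narrow margin over Ccl9. Ccl4 (15) was closer to Ccl6 than Ccl9 (21) was, and Ccl3 (60) was closer to Ccl9 than Ccl6 (191) was. This measure thus followed the neighbours Ccl3 and Ccl4 but not the neighbours Ccl6 and Ccl9. These are descriptions over 6 libraries that share 3 populations.

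Cell type markers were read beside these results, because Ccl3, Ccl4, Ccl6 and Ccl9 are also transcribed by macrophages and other myeloid cells. All 12 basophil markers were tested, and their summed level was 17357 and 22225 TPM in BaP cells, 22410 and 18870 in MAR1HI cells, and 15055 and 12364 in MAR1INT cells, led by the granule protease genes Prss34 and Mcpt8. The sum hides unlike members: 5 were called higher and none lower in MAR1HI against BaP, 1 higher and 3 lower in MAR1INT against MAR1HI, and 6 higher and 4 lower in MAR1INT against BaP. Cd200r3, Itga2, Hdc, Gata2, Il4 and Il6 rose in the last comparison along with the 4 chemokine genes, while Mcpt8, Prss34, Fcer1a and Cpa3 fell. Cd200r3 is also the marker on which MAR1HI and MAR1INT were gated. Monocyte and macrophage markers summed to 656 and 1091, 244 and 294, and 259 and 215 TPM; of 13 tested, 11 were lower in MAR1INT than in BaP and none was higher. Csf1r, which defines that lineage, was at 39.4 and 29.6 TPM in BaP and at most 6.17 in the other libraries, and Adgre1 was higher in MAR1INT than in MAR1HI. Eosinophil markers summed to 2160 and 1146, 81.2 and 119, and 81.5 and 228 TPM; Siglecf rose, while Epx was at 0 in both MAR1INT libraries. Dendritic cell markers summed to 995 and 359, 73.8 and 60.4, and 16.1 and 25.6 TPM, and T and NK cell markers to 381 and 392, 205 and 211, and 37.7 and 52.5 TPM, nearly all from Nkg7. Mast cell markers summed to 45.1 and 42.6, 4.08 and 4.89, and 0.0446 and 0.449 TPM, mostly from Kit in the BaP and MAR1HI libraries, with Tpsab1 and Mcpt1 at 0 in all libraries. B and plasma cell markers summed to 14.8 to 41.0 TPM and erythroid markers to 598 to 2786 TPM, and none of either list rose or fell except 1 erythroid gene that was lower in MAR1INT than in BaP. Progenitor markers summed to 284 and 268, 91.6 and 148, and 42.7 and 31.2 TPM. Neither the basophil list nor any list of another cell type followed the order of the 4 chemokine genes in its summed level. Such sums can hide unlike members, and the part of other cells in the differences of the 4 genes was not tested. The gates were reflected in Cd34, at 52.6 and 44.1 TPM in BaP and at most 7.63 elsewhere; Kit was at 44.9 and 38.6 TPM in the c-Kit-negative BaP gate.

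Neutrophil markers summed to 6222 and 11220 TPM for BaP, 5039 and 3823 for MAR1HI, and 4074 and 3557 for MAR1INT. BaP replicate 2 thus stood apart in these genes, and it was also the BaP library with the higher Ccl3 and Ccl4. In the same library Fos was at 36.6 TPM against 5.57 in BaP replicate 1. Summed levels of monocyte and macrophage (1091 against 656 TPM), erythroid (2313 against 1546 TPM) and basophil markers (22225 against 17357 TPM) were higher there as well. The part of RNA from any of these cells and of Fos in the spread of Ccl4 was not tested. Without BaP replicate 2 the difference of MAR1HI and BaP in Ccl9 passed no longer (limma adjusted p = 0.0537), while Ccl3, Ccl4 and Ccl6 were still called.

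The depth behind these values was even in aligned bases, which as implied by the tables lay between 4.75 and 5.28 gigabases per library. The number of genes that reached 1 TPM differed by population. It was 10983 and 11544 in BaP, 10710 and 11038 in MAR1HI, and lowest in MAR1INT, at 9604 and 9705. Whether this bears on the genes called lower that had no signal in either MAR1INT library was not tested. Mean read depth over the 4 genes ranged from 48.6 for Ccl4 in a BaP library to 4460 for Ccl6 in a MAR1INT library.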

How the data were processed

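RNA of 6 libraries (BaP, MAR1HI and MAR1INT, 2 each) was sequenced after TRIzol LS extraction with a capture kit, per the labels' protocols. Trimmomatic, HISAT2 and StringTie and the build mm10 are named in the submitters' processing notes; versions, options and the annotation release are not given in the sources used here. Per the file headers, the deposited tables give a coverage signal (mean read depth), FPKM and TPM per gene, all made by the authors. TPM sums to 1000000 per library. No counts were used, so no counting interval is given. Gene IDs were matched to symbols in a GRCm38.p6 table (24462 of 24532), and parts of an ID were summed.

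Log2(TPM + 1) was fitted with limma 3.58.1 in R 4.3.3 (1 term per group, eBayes with a trend) on the 11337 genes that reached 1 TPM in 2 or more libraries, with Benjamini-Hochberg adjustment over all of them; genes under an adjusted p of 0.05 were called. The fit had 3 residual degrees of freedom (median prior 6.39). It was also run on simulated data, but with spreads shuffled over genes, so that run cannot check the trend. The log2(TPM + 1) scale understates changes of low genes. Groups came from the labels. The 4 genes, lists and tests were chosen with earlier results of these data known; the search for ATTTA, exons and cysteine codons was chosen after the files were seen. Named are the 4 genes, receptors, called genes of the lists, neighbours within 250 kilobases and the 5 most similar genes; of the neighbours and markers, only some are named, and 1 gene is not reported here. Alternatives were another pseudocount, filter, unit, scaling, fit or block, and leaving out each library. Deviations of same-numbered libraries from their group means correlated at 0.154, -0.0922 and -0.0592 in the 3 pairs of groups. These low values show no pairing by replicate number but cannot exclude one.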

Additional observations from a re-analysis of the deposited data

How the results depend on the processing

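The 4 chemokine genes kept their direction in the 3 comparisons between populations under all 15 alternatives. Only the FPKM, quantile and median-of-ratios settings could have reversed it there. All 4 genes were called in MAR1INT minus BaP except without a filter on low values, where Ccl4 missed (limma adjusted p = 0.0562). For MAR1HI minus BaP, 4 were called as fitted, 2 by eBayes without a trend, 1 without a filter, and 1 to 4 leaving out single libraries. For MAR1INT minus MAR1HI, 2 were called as fitted, 1 without a filter, and 1 to 3 leaving out single libraries. For the difference of steps, 1 was called as fitted, 0 with FPKM, eBayes without a trend, median-of-ratios factors, no filter, a pseudocount of 0.1 or quantile scaling, and 0 to 2 leaving out single libraries. That difference, called in no setting for Ccl6 or Ccl9, changed sign for Ccl6 with median-of-ratios factors (-0.039) and for Ccl9 with FPKM (-0.056), median-of-ratios factors (-0.43), quantile scaling (-0.17) and, leaving out single libraries, over a range of -0.055 (without BaP replicate 2) to 0.38. Why these values moved was not tested.

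Over all genes, 282 were called in MAR1HI minus BaP, against 104 by eBayes without a trend, 30 without a filter, 1062 with only the 2 groups, 89 with a pseudocount of 0.1 and 3 to 1092 leaving out single libraries. In MAR1INT minus MAR1HI 1900 were called, against 116 without a filter and 239 to 2611 leaving out single libraries. In MAR1INT minus BaP 3574 were called, against 1094 without a filter and 1581 to 4024 leaving out single libraries. With the replicate block, a pairing not shown here, 4, 3 and 4 of the 4 genes were called in the 3 comparisons. The added call was Ccl4 in MAR1INT minus MAR1HI (limma adjusted p = 0.0298). Nfkb2 (0.0561) and Nfatc3 (0.0680) were not called in MAR1INT minus BaP. Neither was Ccr1 in MAR1HI minus BaP (0.0638) nor Rcan1 in MAR1INT minus MAR1HI (0.0595). With 2 libraries a group, a lone library left after leaving one out is assumed to vary like the other groups.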
